A study of Homo sapiens with 42 samples.

Results

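The snoRNAs described here are the C/D box snoRNAs of the imprinted clusters on human chromosomes 14 and 15. They were taken as every row of the deposited count table of at most 500 bases that was annotated as snoRNA and named SNORD113, SNORD114, SNORD115 or SNORD116 with a copy number, which gave 117 of the 175946 rows. These comprised 9 rows of SNORD113, 30 of SNORD114, 48 of SNORD115 and 30 of SNORD116. Values were available for 30 small RNA libraries in 10 groups of 3. THP-1 (a human monocytic leukaemia line) was represented by the groups A4, A7, E4 and G8, which the labels give as names without saying which gene each lacks, in a study of POLR3G and POLR3GL knockout. Both proteins are versions of the same RNA polymerase III subunit, and an enzyme complex holds one or the other. The group named mock was labelled HEK293T (a human embryonic kidney line) given 200 nM of a control antisense oligonucleotide. Each group was sequenced without (minus PNK) and with (plus PNK) treatment of the RNA by phosphatase and polynucleotide kinase, which makes RNA ends that lack a 5′ phosphate or carry a 3′ phosphate accessible to adapter ligation. Unedited THP-1 control libraries were not analysed here, so the THP-1 groups are compared with mock and with each other. In the mock comparison, cell line, knockout and oligonucleotide treatment cannot be told apart.

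C/D box snoRNAs are short RNAs that carry a C box near the 5′ end and a D box near the 3′ end, and most of them guide 2′-O-methylation of ribosomal or spliceosomal RNA. The members of the imprinted clusters are tandem copies released from introns of long RNAs, are called orphan because most have no known target of that kind, and are known mainly from brain. SNORD113 and SNORD114 lie in the maternally expressed MEG3 to MEG9 cluster, and SNORD115 and SNORD116 in the paternally expressed SNRPN and SNHG14 transcription unit. Loss of the paternal SNORD116 copies is a known cause of features of Prader-Willi syndrome, and SNORD115 is known for its complementarity to the serotonin receptor mRNA HTR2C.

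The positions below are those of the rows in GRCh38, the build the submitters' processing notes name. The sequences are GENCODE 29 transcripts, which matched all rows but SNORD115-47 within 20 bases at both ends. Where the ends differ, the printed sequence is not that of the whole interval, as for SNORD116-15, SNORD116-25 and SNORD116-26. Capitals mark the C box (TGATGA, sought in the first 15 bases) and the D box (CTGA, sought in the last 15 bases). The first sequences are the SNORD116 copies with the highest levels, from 3 sequence groups of the array: SNORD116-8 (chr15:25070432-25070526), SNORD116-15 (chr15:25081286-25081379), SNORD116-25 (chr15:25097662-25097755) and SNORD116-26 (chr15:25099498-25099595), all on the plus strand.
SNORD116-8: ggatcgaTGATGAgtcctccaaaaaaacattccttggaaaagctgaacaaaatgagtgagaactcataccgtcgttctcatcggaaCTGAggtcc
SNORD116-15: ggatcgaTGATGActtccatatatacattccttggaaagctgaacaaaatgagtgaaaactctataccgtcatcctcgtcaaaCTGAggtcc
SNORD116-25: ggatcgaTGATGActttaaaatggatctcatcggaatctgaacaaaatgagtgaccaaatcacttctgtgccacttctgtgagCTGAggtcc
SNORD116-26: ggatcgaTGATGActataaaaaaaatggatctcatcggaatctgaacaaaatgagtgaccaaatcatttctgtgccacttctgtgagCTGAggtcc

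The next sequences are a SNORD116 copy with the opposite response to PNK, a near relative of it, and both copies without a count: SNORD116-4 (chr15:25059538-25059633), SNORD116-2 (chr15:25054210-25054304), SNORD116-10 (chr15:25074114-25074215) and SNORD116-28 (chr15:25104642-25104732).
SNORD116-4: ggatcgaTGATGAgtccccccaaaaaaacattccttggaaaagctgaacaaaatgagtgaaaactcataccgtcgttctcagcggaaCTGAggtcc
SNORD116-2: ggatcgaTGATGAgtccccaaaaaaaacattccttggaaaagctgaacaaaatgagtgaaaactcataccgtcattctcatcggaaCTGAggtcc
SNORD116-10: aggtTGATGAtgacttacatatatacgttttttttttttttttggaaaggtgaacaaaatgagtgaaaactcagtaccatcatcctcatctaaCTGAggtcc
SNORD116-28: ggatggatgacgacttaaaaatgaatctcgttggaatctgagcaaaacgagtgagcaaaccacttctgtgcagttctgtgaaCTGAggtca
SNORD116-4 differed from SNORD116-2 by 4 edits (substitutions, insertions or deletions). SNORD116-10 was 23 edits from its nearest copy, and SNORD116-28 was 14 edits from SNORD116-25 and held no TGATGA in the window searched.

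For SNORD115, a copy that holds the stretch complementary to HTR2C and the most counted copy are shown: SNORD115-9 (chr15:25185631-25185712) and SNORD115-19 (chr15:25204357-25204438), the latter identical in sequence to SNORD115-17 and SNORD115-18.
SNORD115-9: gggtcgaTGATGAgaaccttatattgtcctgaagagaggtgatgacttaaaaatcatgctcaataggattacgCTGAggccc
SNORD115-19: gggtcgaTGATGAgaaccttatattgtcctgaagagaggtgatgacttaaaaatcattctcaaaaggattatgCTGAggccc
The longest exact complement to an HTR2C transcript in SNORD115-9 was ATGCTCAATAGGATTACG. It spans 18 bases and was held by 29 of the 47 copies matched. SNORD115-17, SNORD115-18 and SNORD115-19 differed from it at 3 bases, and their longest exact complement to HTR2C was 8 bases.

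Both boxes were found in 28 of the 30 SNORD116 copies, 40 of 47 SNORD115, 20 of 30 SNORD114 and 8 of 9 SNORD113. Among the other C/D snoRNAs matched to GENCODE, 75 of 149 (50.3%) held both by the same search, which accepts the exact letters alone, on the strand of the snoRNA.

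Libraries held 9653590 to 13272160 counts minus PNK and 5547680 to 7900654 plus PNK over the rows kept after overlapping rows were removed. All C/D snoRNAs took 62.6% to 92.2% of these counts minus PNK and 6.99% to 22% plus PNK. G8 minus PNK libraries 1 and 2 stood apart, with 2.01% and 2.05% miRNA against 12.9% to 25.9% in the other 13. Over 1825 features minus PNK, library 3 of mock correlated best with A4 library 1 (r = 0.983 on log2 values, against at most 0.974 with its own group). Library 3 of A4 correlated best with mock library 2, library 3 of E4 with A7 library 3, and library 3 of G8 with A7 library 3. Plus PNK, library 3 of G8 correlated best with mock library 2 (r = 0.941, against at most 0.923 with its own group), and library 3 of A7 and of E4 with each other. The other 12 plus PNK libraries, among them all of mock and A4, correlated best with a library of their own group. A summed level of 7 haematopoietic miRNAs was 5186 to 7402 CPM (counts scaled to a common library size, with TMM factors within each arm) in the libraries labelled mock minus PNK, close to the 5453 to 7510 CPM of A4, and 7 epithelial miRNAs summed to 28.8 to 41.5 CPM. Plus PNK the same haematopoietic sum was 81.3 to 82.9 CPM in mock, 176 to 314 in A4, 291 to 554 in A7, 348 to 397 in E4 and 39.6 to 130 in G8. Of the haematopoietic counts, 1 miRNA held 675933 of 1143143 minus PNK and 18326 of 22457 plus PNK. G8, labelled THP-1, had 909 to 6676 CPM minus PNK. In mock minus PNK, 11 neuronal miRNAs also summed to 2625 to 3730 CPM, so a high sum does not by itself mark a cell type. The haematopoietic level in mock puts the label HEK293T in doubt, and these sums cannot settle it. For this reason mock is used here as the name of the group alone, and directions against it follow the label.

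The chromosome 14 snoRNAs were at or near 0 in every library. Of the 9 SNORD113 rows (chr14:100924824-100945720), 8 had no count, and SNORD113-9 had 1 count in A4 library 3 minus PNK and 1 in A4 library 3 plus PNK. Of the 30 SNORD114 rows (chr14:100949833-100993310), 28 had no count. SNORD114-3 had 1 count in A4 library 1 minus PNK, 2 in G8 library 2 minus PNK and 2 in mock library 1 plus PNK, and SNORD114-25 had 5 in G8 library 1 minus PNK. These were 12 counts in all 30 libraries. A count of 0 allows up to 3 counts, which covers counting error only. Scaled by library totals alone, without TMM factors, this limit is 0.226 to 0.311 CPM per library minus PNK and 0.380 to 0.541 CPM plus PNK. With TMM factors the limits differ, and the 2 SNORD114 counts in G8 library 2 minus PNK were 0.373 CPM on that scale. The neighbouring miRNA cluster gave the same picture: 52 of 52 miRNAs of 14q32 were at 0 minus PNK, and 51 of 52 plus PNK, with 1 count for the remaining one. No SNORD113 or SNORD114 row passed the filter on low counts, so none was tested.

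The chromosome 15 snoRNAs were present in all 30 libraries. SNORD116 rows (chr15:25051476-25108352) held 792453 counts minus PNK and 88614 plus PNK, in 28 of 30 copies. SNORD115 rows (chr15:25170723-25269858) held 10749 and 1772 counts, in 45 of 48 copies. SNORD115-28, SNORD115-45 and SNORD115-47 had no count, and the other 45 had from 1 to 1617 counts in all.

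Within SNORD116 the levels per length spanned several orders of magnitude. The mean over 15 libraries minus PNK was 813 CPM per 100 bases for SNORD116-8, 733 for SNORD116-26 and 720 for SNORD116-25, and these 3 copies held 40.8% of the family's counts. SNORD116-15 followed at 439, SNORD116-29 at 389 and SNORD116-24 at 330 CPM per 100 bases. At the low end were SNORD116-7 at 25.2 and SNORD116-13 at 19.4. SNORD116-4 was at 0.342 and SNORD116-30, which lacked TGATGA and had 10 counts in all, at 0.0558. Plus PNK, SNORD116-25, SNORD116-26 and SNORD116-8 again led, at 134, 129 and 128 CPM per 100 bases.

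**Figure D1:**
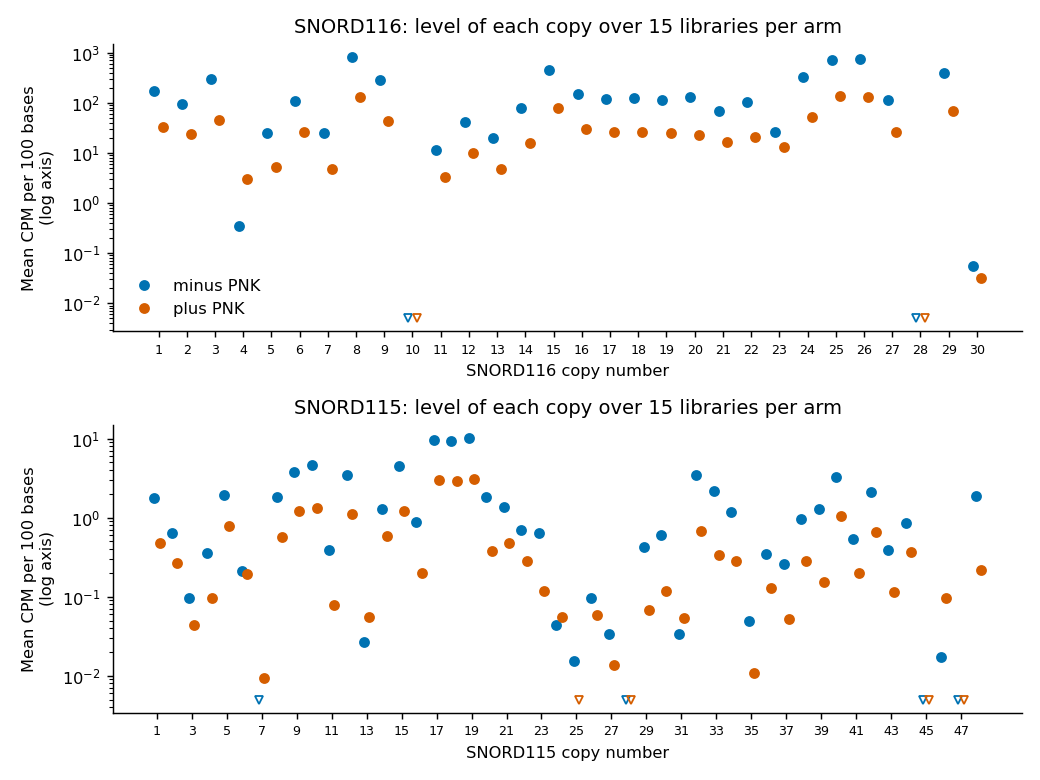
Mean level of each SNORD116 and SNORD115 copy, in CPM per 100 bases on a log axis, over the 15 libraries minus PNK (blue) and the 15 plus PNK (orange). Open triangles at the bottom mark copies with no count in that arm. SNORD116-8, SNORD116-25 and SNORD116-26 lead their family, and the identical SNORD115-17, SNORD115-18 and SNORD115-19 lead theirs, at 9.57, 9.30 and 10.1 CPM per 100 bases minus PNK.

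SNORD115 was far lower. SNORD115-17, SNORD115-18 and SNORD115-19, which lack the full HTR2C complement, held 36.7% of the family's counts minus PNK and 38.5% plus PNK. SNORD115-10 at 4.6 and SNORD115-15 at 4.53 CPM per 100 bases minus PNK were the highest of the copies that hold it. Copies with identical sequences had nearly equal counts. The 3 identical copies SNORD115-17, SNORD115-18 and SNORD115-19 ranged from 1490 to 1617 counts over all libraries, SNORD116-3 and SNORD116-9 had 48747 and 48660, and SNORD116-5 and SNORD116-7 had 4187 and 4197. Across libraries the chi-square statistic of an even split was 0.62 to 1.49 per degree of freedom in the 6 sets of identical copies, so reads of identical copies cannot be assigned to one of them and each such copy's level is uncertain.

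The summed SNORD116 level minus PNK was 2704, 2891 and 5692 CPM in mock libraries 1, 2 and 3. It was 7433, 6825 and 3239 in A4, 2564, 2065 and 3508 in A7, 4816, 6138 and 3509 in E4, and 12567, 10258 and 4077 in G8. The TMM factors of G8 libraries 1 and 2 were 0.626 and 0.511, which raises all their CPM values. In the other minus PNK libraries they were 0.984 to 1.35. The groups overlapped, and library 3 lay apart from libraries 1 and 2 in mock, A4 and G8, upward in mock and downward in A4 and G8. Plus PNK the level was 910, 273 and 428 CPM in mock, 1409, 1285 and 1070 in A4, 1206, 653 and 851 in A7, 1361, 1571 and 1177 in E4, and 910, 724 and 494 in G8. All libraries of A4 and E4 were above all libraries of mock and G8 in that arm. In bulk RNA, fewer cells of a type and less RNA per cell cannot be told apart.

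As a share of all C/D snoRNA counts, which does not depend on the miRNA content, SNORD116 was 0.418%, 0.433% and 0.776% in mock minus PNK, 1.01%, 0.993% and 0.433% in A4, 0.516%, 0.446% and 0.594% in A7, 0.817%, 0.992% and 0.510% in E4, and 0.870%, 0.569% and 0.577% in G8. On this scale A4 library 1 was the highest and mock library 1 the lowest, and the groups overlapped. Plus PNK the shares ran from 0.479% in A7 library 2 to 0.963% in E4 library 2.

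SNORD115 had another order of groups. Minus PNK its summed level was 56.6, 47.3 and 93.2 CPM in mock, 138, 132 and 75.8 in A4, 40.2, 28.5 and 52.1 in A7, 56.2, 64.3 and 56.1 in E4, and 65.9, 52.7 and 14.3 in G8. Plus PNK it was 22, 6.72 and 8.15 CPM in mock, 33.2, 39.1 and 37.0 in A4, 25.2, 15.7 and 19.1 in A7, 19.7, 21.2 and 25.1 in E4, and 6.17, 5.84 and 4.21 in G8. Plus PNK, all 3 A4 libraries were above the other 12 and all 3 G8 libraries below the other 12. As a share of C/D snoRNA counts, G8 was the lowest group in both arms, at 0.00317% ± 0.00129 (SD, n = 3) minus PNK and 0.00513% ± 0.000576 plus PNK, against 0.0160% ± 0.00512 and 0.0219% ± 0.00477 in A4, the highest group. Each G8 library was below each library of the other 4 groups in both arms on this scale.

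**Figure D2:**
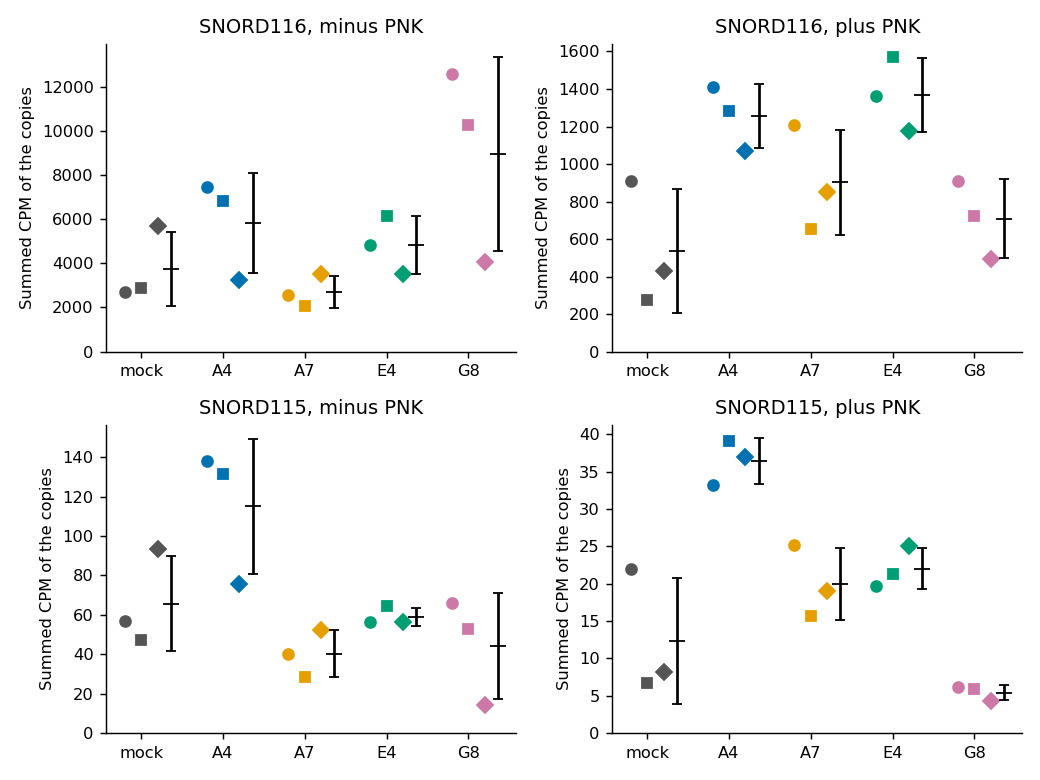
Summed CPM of the SNORD116 and SNORD115 copies by group, minus and plus PNK, with 1 symbol per library (circle, square and diamond for libraries 1, 2 and 3) and the mean ± SD of 3 libraries as a black bar. SNORD116 minus PNK is 5692 CPM in mock library 3 and 3239 in A4 library 3, on opposite sides of their groups, and SNORD115 plus PNK is lowest in G8.

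The SNORD116 copies fall into sequence groups along the array, and their summed levels varied between libraries to unlike degrees. Copies 1 to 9 had a median pairwise identity of 95.8%, copies 10 to 24 of 92.4% and copies 25 to 30 of 79.2%. Between copies 1 to 9 and 25 to 30 the median was 68.6%. Minus PNK, copies 25 to 30 summed to 1180 to 1718 CPM in 13 of 15 libraries, G8 libraries 1 and 2 being higher at 4071 and 5284. Most of this sum came from SNORD116-25 and SNORD116-26. G8 libraries 1 and 2 had low TMM factors (0.626 and 0.511), which raise all their CPM values. The other C/D snoRNAs were also higher there, at 1431694 and 1792746 CPM, against 461065 to 744177 in the other 13. In the same 13 libraries copies 1 to 9 ranged from 468 CPM in A7 library 2 to 3137 in A4 library 1, and copies 10 to 24 from 307 in A7 library 2 to 3038 in A4 library 1.

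The level of copies 1 to 9 minus PNK was 695, 730 and 2011 CPM in mock, 3137, 2971 and 1001 in A4, 709, 468 and 1040 in A7, 1880, 2637 and 961 in E4, and 4350, 2482 and 1103 in G8. Copies 25 to 30 therefore made up 49%, 47.0% and 24.4% of the SNORD116 counts in mock libraries 1, 2 and 3, and 16.9%, 17.3% and 39.5% in those of A4. In A7 they made up 53.6%, 62.5% and 47.1%, in E4 28.6%, 22.8% and 42.8%, and in G8 32.4%, 51.5% and 42.1%. These shares are ratios within a library and do not depend on its scaling.

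The shares recurred in the plus PNK libraries. Copies 25 to 30 made up 47.1%, 36.8% and 24.3% in mock, 19.1%, 18.4% and 40.8% in A4, 51.5%, 55.2% and 46.4% in A7, 30.3%, 23.5% and 43.8% in E4, and 31.7%, 42.3% and 36.5% in G8. Library 3 of mock was the lowest of its group and library 3 of A4 and E4 the highest of theirs in both arms. The libraries of the 2 arms that carry the same group name and number thus gave like shares, although the labels do not say that they came from the same RNA. What sets library 3 apart was not tested.

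**Figure D3:**
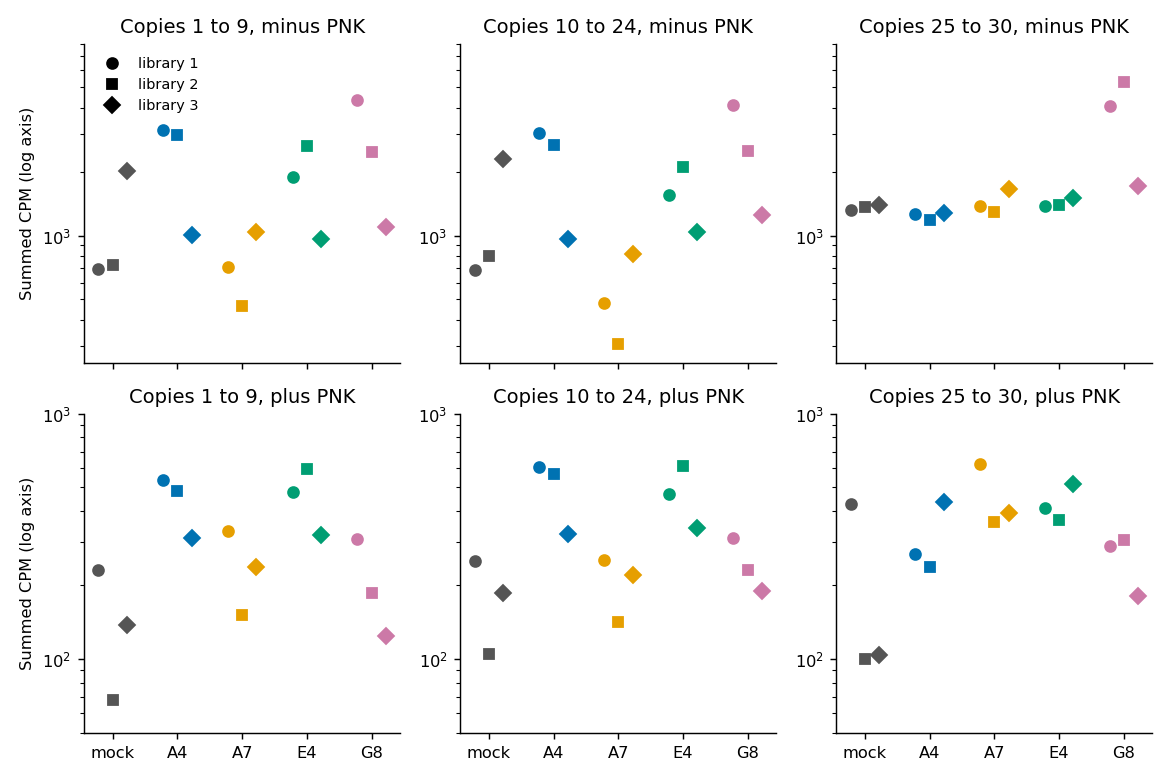
Summed CPM on a log axis of SNORD116 copies 1 to 9, 10 to 24 and 25 to 30 by group, minus PNK (top) and plus PNK (bottom), with 1 symbol per library. Minus PNK, copies 25 to 30 lie between 1180 and 1718 CPM outside G8 libraries 1 and 2, while copies 1 to 9 run from 468 to 3137 in the same 13 libraries. In G8 libraries 1 and 2 copies 25 to 30 reach 4071 and 5284 and copies 1 to 9 reach 4350 and 2482. Low TMM factors (0.626 and 0.511) raise all CPM values of these 2 libraries.

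The narrow range of copies 25 to 30 was that of the most counted ones. SNORD116-25 minus PNK had 518, 546 and 476 CPM in mock, 387, 376 and 471 in A4, 573, 583 and 645 in A7, 510, 510 and 572 in E4, and 1320, 2014 and 652 in G8. SNORD116-26 was close to it in every library, from 410 CPM in A4 library 2 to 2250 in G8 library 2. For these copies mock, A7, E4 and A4 each had a narrow range, and A4 and A7 did not overlap. The other counted copies of this group varied more. Outside G8 libraries 1 and 2, SNORD116-27 ranged from 27.8 CPM in A7 library 2 to 119 in A4 library 1, and SNORD116-29 from 108 in A7 library 2 to 331 in A4 library 1, so the narrow range was not shared by the whole sequence group.

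SNORD116-3, of the first group, had 68.3, 74.0 and 340 CPM in mock, 641, 638 and 128 in A4, 92.1, 53.3 and 119 in A7, 367, 561 and 127 in E4, and 613, 264 and 126 in G8. Its library 3 values of A4, A7, E4 and G8 lay between 119 and 128 CPM. SNORD116-15, of the middle group, had 157, 177 and 556 CPM in mock, 803, 717 and 233 in A4, 118, 71.5 and 208 in A7, 416, 562 and 258 in E4, and 1053, 580 and 276 in G8, with the same libraries high and low. SNORD116-8, although closest in sequence to SNORD116-3, with 2 edits, varied less. It had 433, 458 and 837 CPM in mock, 957, 855 and 563 in A4, 391, 291 and 622 in A7, 676, 773 and 538 in E4, and 2059, 1517 and 619 in G8.

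Other snoRNAs of the same chromosome 15 unit did not share one pattern. SNORD64, a single-copy snoRNA upstream of the arrays, had 488, 573 and 580 CPM minus PNK in mock, 558, 424 and 554 in A4, 765, 725 and 1171 in A7, 814, 662 and 862 in E4, and 2020, 2656 and 927 in G8, so that A4 was near mock. SNORD107 ranged from 37.4 to 266 CPM and the rows named SNORD109A from 53.1 to 280 CPM minus PNK. SNORD108 had 1 count minus PNK and 6 plus PNK. Of 12 long host RNAs of these clusters, 9 had a row and 4 had one left after overlapping rows were removed. Those 4 held 3 counts minus PNK and 226 plus PNK, 200 of them from 1 gene.

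The first test asked whether the 4 THP-1 groups together differed from mock. Levels were compared with edgeR's quasi-likelihood test, with Benjamini-Hochberg adjustment over all features tested and a threshold of 0.05. Minus PNK, 52 members passed the filter on low counts, 26 of each family, and 0 were called, with 0 at an unadjusted p under 0.05. The background was 5.97% of 1825 features called, 0.712% higher and 5.26% lower. Of the other C/D snoRNAs, 0 of 170 were called. SNORD116 had a median log2 difference of 0.36 with 26 of 26 above 0, and SNORD115 a median of -0.18 with 7 of 26 above 0. The median was 0.24 for the other C/D snoRNAs, with 136 of 170 above 0, and -0.06 for all features. SNORD116-8 differed by 0.38 ± 0.35 (SE), SNORD116-26 by 0.42 ± 0.28 and SNORD116-25 by 0.33 ± 0.27 on the log2 scale, with adjusted p of 0.63, 0.51 and 0.59.

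Without library 3 of A4, E4 and mock, the median difference minus PNK was 1.33 for SNORD116 (27 of 27 above 0) and 0.23 for SNORD115 (21 of 27 above 0), and again 0 members were called. Leaving out mock library 3 alone gave medians of 1.14 and 0.20, so the size of the SNORD116 median and the sign of the SNORD115 median depended on that library. Without G8 libraries 1 and 2 the medians were 0.19 and -0.56. The first of these alternatives was chosen after the values had been seen.

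Plus PNK, 7 of the 32 members tested were higher in the THP-1 groups and 0 were lower. The background was 5.95% of 9181 features called, 3.62% higher and 2.33% lower. Of the other C/D snoRNAs, 85 of 169 were higher and 0 lower, so the share of members called, 21.9%, was below that of C/D snoRNAs in general. The 7 were SNORD116-1, SNORD116-2, SNORD116-5, SNORD116-7, SNORD116-14, SNORD116-18 and SNORD116-22. All are from copies 1 to 24, as were most of the 27 SNORD116 copies tested. SNORD116-5 and SNORD116-7 are identical in sequence and are 1 measurement. With identical copies summed, 7 members were again called, all higher. The median log2 difference was 0.91 over 27 SNORD116 copies, 0.42 over 5 SNORD115 copies, 1.04 over the other C/D snoRNAs and -0.01 over all features.

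SNORD116-2 had the lowest adjusted p of the 7. Plus PNK it had 12.3, 7.65 and 10.1 CPM in mock, 42.3, 39.7 and 23.8 in A4, 18.7, 13.7 and 14.7 in A7, 31.1, 44.8 and 22.6 in E4, and 33.6, 16.5 and 12.4 in G8. All 12 THP-1 libraries were above the highest mock library, G8 library 3 only just, with a log2 difference of 1.31 ± 0.29 (SE) and adjusted p = 0.012. The share of all features with such a separation was not counted. SNORD116-5 had 2.71, 1.04 and 1.66 CPM in mock, 9.17, 8.62 and 4.84 in A4, 5.07, 1.84 and 3.37 in A7, 9.11, 9.26 and 5.14 in E4, and 6.60, 4.38 and 2.68 in G8. Its log2 difference was the largest of the members, 1.64 ± 0.37 (adjusted p = 0.013), on 9 to 68 counts per library, with 10 of 12 THP-1 libraries above the highest mock library. SNORD116-22, at 10.8, 7.30 and 9.81 CPM in mock and 9.07 to 42.6 in the THP-1 libraries, differed by 1.09 ± 0.26 (adjusted p = 0.018). The highest copies, SNORD116-8, SNORD116-25 and SNORD116-26, differed by 0.96, 0.78 and 0.73 and were not called (adjusted p = 0.14, 0.27 and 0.35).

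These calls depended on the scaling. With factors computed from the other C/D snoRNAs, which shifted the median of all features plus PNK to -1.21, the SNORD116 median was -0.19 and 7 of 27 copies were above 0. None of the 7 was then called, and 1 member, SNORD116-4, was called lower in the THP-1 groups at -0.89 ± 0.37. The number of calls with TMM factors was 0 without mock library 2, 1 without mock library 3 and 21 without mock library 1. It was 4 without A4 library 1, A7 library 3, E4 library 1 or E4 library 2, and 13 without G8 library 3. With the C/D factors, 0 members were called higher in either arm.

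**Figure D4:**
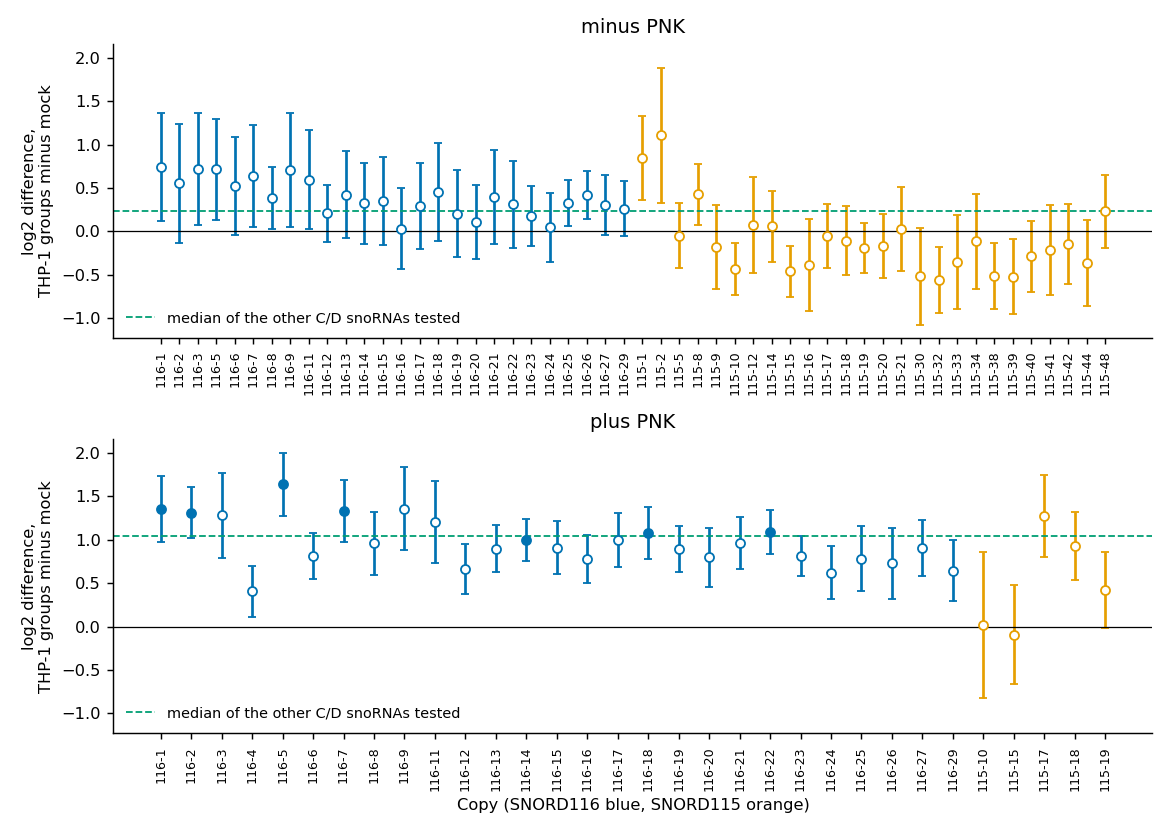
log2 difference between the mean of the 4 THP-1 groups and mock for every member tested, with its standard error, minus PNK (top, 52 members) and plus PNK (bottom, 32). Filled points passed the threshold, and the dashed line is the median of the other C/D snoRNAs (0.24 and 1.04). The 7 filled points are SNORD116 copies plus PNK, from 1.00 (SNORD116-14, just below that line) to 1.64 (SNORD116-5), and the other 6 of the 7 lie above it.

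The second test asked whether A4, A7, E4 and G8 differed among themselves. Minus PNK, 23 of 50 members tested were called (46.0%), against a background of 32.7% of 1778 features and 111 of 170 other C/D snoRNAs (65.3%). These were 13 of 26 SNORD116 copies, all between SNORD116-12 and SNORD116-29 and none of copies 1 to 9, and 10 of 24 SNORD115 copies. Plus PNK, 16 of 30 were called (53.3%), against 22.1% of 8563 features and 83 of 169 other C/D snoRNAs (49.1%). These were 13 of 27 SNORD116 copies, SNORD116-3, SNORD116-9 and 11 of copies 13 to 24, and the 3 SNORD115 copies tested.

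SNORD115-17, SNORD115-18 and SNORD115-19 were tested in both arms. SNORD115-17 and SNORD115-19 were called in both, and SNORD115-18 plus PNK. Because the 3 sequences are identical, they are 1 measurement. Their summed level minus PNK was 49.5, 44.3 and 32.1 CPM in A4, 17.6, 11 and 21.0 in A7, 20.3, 22.1 and 20.8 in E4, and 20.5, 21.4 and 4.46 in G8, so that all A4 libraries were above all others of THP-1. Plus PNK it was 11.3, 12.8 and 15.1 CPM in A4, 13.3, 7.07 and 8.28 in A7, 7.32, 10.2 and 8.11 in E4, and 1.70, 3.55 and 1.02 in G8, so that G8 lay below the others. The adjusted p of SNORD115-19 among the THP-1 groups was 0.016 minus PNK and 0.00067 plus PNK. Minus PNK, the call of SNORD115-19 was lost without A4 library 1 (0.063) or A4 library 2 (0.059), and that of SNORD115-17 without any 1 of the 12 libraries except G8 library 3 (0.051 to 0.17). Plus PNK, SNORD115-19 was called under each of the 21 alternatives, with an adjusted p of at most 0.014. The call of SNORD115-17 held under 20 of 22 alternatives, and the losses included the fit without G8 library 1 (0.060). In mock the summed level was 22.2, 16.7 and 31.9 CPM minus PNK and 7.97, 2.09 and 1.66 plus PNK.

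SNORD115-40 minus PNK had 8.04, 7.09 and 3.28 CPM in A4, 1.39, 0.759 and 1.26 in A7, 2.34, 3.40 and 1.64 in E4, and 2.50, 0.559 and 0.595 in G8, on 3 to 105 counts, with an adjusted p of 0.012. It holds the full HTR2C complement. A4 libraries 1 and 2 were above all others, and A4 library 3 was within the range of E4. SNORD116-24 (adjusted p = 0.018 minus PNK and 0.011 plus PNK) had 456, 395 and 193 CPM minus PNK in A4, 82.1, 64.3 and 151 in A7, 241, 323 and 207 in E4, and 852, 634 and 281 in G8. Every A7 library was below every library of the other 3 groups for SNORD116-24 in the minus PNK arm. This call was lost in both arms with factors from the other C/D snoRNAs (adjusted p = 0.061 minus PNK and 0.12 plus PNK), and minus PNK without A7 library 1 (0.070) or A7 library 2 (0.067).

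For SNORD116-25 and SNORD116-26 (adjusted p = 0.021 and 0.016 minus PNK), the high values were those of G8 libraries 1 and 2. Without these, the adjusted p was 0.049 and 0.060. Plus PNK neither was called (0.11 and 0.062), but with the C/D factors both were (0.012 and 0.010). The number of members called minus PNK was 43 without G8 library 3, 14 without G8 library 1 and 7 without G8 library 2. Leaving out A4 library 1 gave 5 calls and A4 library 2 gave 3. Leaving out A7 library 1 gave 8, as did A7 library 2, while E4 library 1 gave 9 and E4 library 2 gave 11.

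Both families took a smaller share of the plus PNK libraries, as did the other C/D snoRNAs. Of the kept counts, SNORD116 took 0.343% to 0.582% by group mean minus PNK and 0.0637% to 0.135% plus PNK, a ratio of 3.66 in A7 to 9.01 in G8. For the other C/D snoRNAs this ratio was 3.71 to 8.77 and for SNORD115 2.45 to 5.59. Arms were scaled separately, so shares of counts and not CPM are set side by side here.

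SNORD116-4 went the other way. It had 56 counts minus PNK and 278 plus PNK, so that 83.2% of its counts came from the less deep arm, against 8.08% to 23.2% in the other 26 SNORD116 copies with more than 10 counts. Minus PNK the counts were 0, 1 and 2 in mock, 15, 9 and 1 in A4, 0, 4 and 1 in A7, 5, 13 and 1 in E4, and 2, 1 and 1 in G8. Plus PNK they were 6, 25 and 21 in mock, 21, 9 and 16 in A4, 21, 20 and 27 in A7, 16, 13 and 30 in E4, and 16, 16 and 21 in G8. In 13 of 15 pairs of libraries of the same name the plus PNK library held more. Both boxes of SNORD116-4 are intact, and the sequence above shows it 4 edits from SNORD116-2, which had 14224 counts minus PNK and 2109 plus PNK. SNORD116-4 passed the filter plus PNK, where the THP-1 groups differed from mock by 0.41 ± 0.30 on the log2 scale (adjusted p = 0.50). SNORD116-23 had the next highest plus PNK share, 23.2%, with 3701 counts minus PNK and 1119 plus PNK.

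**Figure D5:**
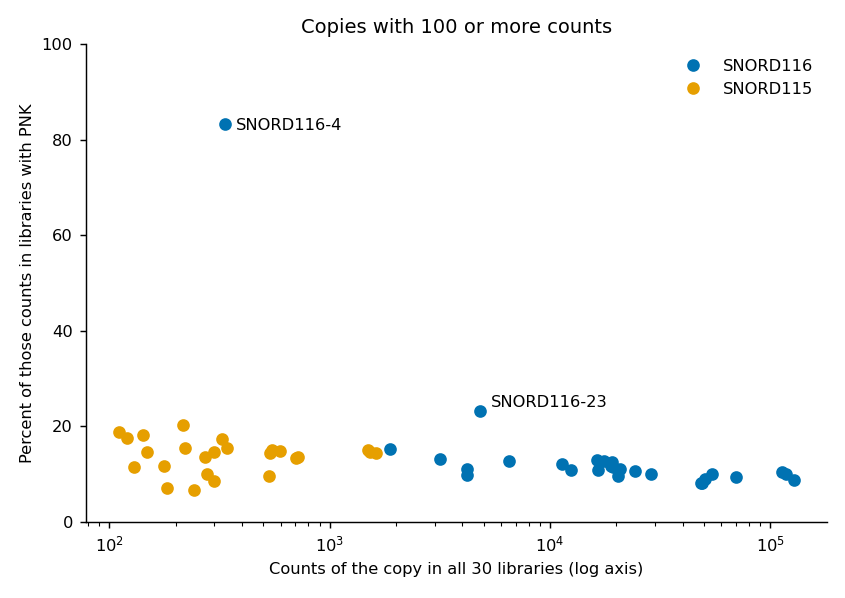
Percent of each copy's counts that came from the plus PNK libraries against its counts in all 30 libraries (log axis), for copies with 100 or more counts. SNORD116-4 lies at 83.2% and SNORD116-23 at 23.2%, above the other copies shown.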

How the data were processed

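The deposited table holds raw read counts per annotated row. Per the submitters' processing notes, Trim Galore, FastQC, Bowtie2 2.3.5.1, SAMtools 1.9, deepTools 3.2.1, bedtools 2.28.0 and GRCh38 were used. The handling of reads that map to several copies is not stated in those notes or labels. Of 42 labelled samples, 12 had no column here and were not analysed here. Of 175946 rows, 85934 remained after overlapping rows were removed, small RNAs first, with all 117 members kept. Each arm was fitted alone with edgeR 4.0.16 (R 4.3.3; TMM factors, filterByExpr, quasi-likelihood test, Benjamini-Hochberg over all features, threshold 0.05), once with mock (15 libraries) and once among the THP-1 groups (12). The fits were tested on simulated data with 200 features changed 4-fold, and 76% to 89.5% of these were recovered. Of the calls there, 4.17% to 7.30% were false, and smaller changes were not simulated. Nothing states that libraries of a group came from separate cultures, so p-values measure the spread between libraries, which may be technical. Members given values were those called in any fit or among the 8 with most counts per family, at most 30 with each library's value, plus SNORD116-4, chosen after its values were seen. Members and lists were chosen with earlier results of these data known. Alternatives were RLE factors, library totals, C/D snoRNA factors, DESeq2 1.42.0, no filter, every row, a replicate block, identical copies summed and leaving out libraries. Summing identical copies was not planned in advance.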

Additional observations from a re-analysis of the deposited data

How the results depend on the processing

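Members called against mock minus PNK numbered 0 under each alternative run, except 1 without library 3 of G8 (range 0 to 1 when 1 library was left out). Plus PNK, the 7 calls against mock became 2 with library totals, 1 (lower) with factors from other C/D snoRNAs, 23 with no filter on low counts, 13 with every deposited row and 4 without G8 libraries 1 and 2, and ranged from 0 to 21 when 1 library was left out. Those C/D factors lowered the log2 difference of features in general, whose median went from -0.01 to -1.21, and with that shift the SNORD116 copies above 0 went from 27 to 7 of 27. Of the members whose differences the text gives, SNORD116-14, SNORD116-18, SNORD116-22, SNORD116-8, SNORD116-26, SNORD116-25 and SNORD116-4 were then at -0.19, -0.070, -0.086, -0.065, -0.21, -0.23 and -0.89. Among the THP-1 groups, the 23 calls minus PNK became 39 with DESeq2, 35 with no filter and 10 with the replicate block, and ranged from 3 to 43 when 1 library was left out. The 16 calls plus PNK became 9 with the C/D factors and 27 with no filter, and ranged from 15 to 23. The filter sets how many features are tested; for the others the cause was not tested. The replicate numbers share no stated batch, and same-numbered libraries deviated together in 3 of 10 pairs of groups minus PNK and 0 of 10 plus PNK, with correlations from -0.77 to 0.74 minus PNK, so the numbers were not taken as pairs. With the replicate block the calls against mock were 0 minus PNK and 10 plus PNK, and 19 among the THP-1 groups plus PNK. Where leaving out libraries left 1 in a group, it was assumed to vary like the others. Calls for SNORD115 plus PNK rest on 223 to 235 counts per copy in all.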
